A study of Mus musculus with 6 samples.

Results

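The miR-30 family was followed in exosomes, the small vesicles that cells release, from 2 kinds of cultured mouse skin cell. Its members were taken by name as the 5p arms mmu-miR-30a-5p, mmu-miR-30b-5p, mmu-miR-30c-5p, mmu-miR-30d-5p and mmu-miR-30e-5p, 5 of the 1964 mature miRNAs among 16310 RNAs listed (the species prefix mmu is left out from here on). Small RNA libraries of 3 ESC and 3 Fb exosome preparations were compared. ESC denotes epidermal stem cells of the dorsal skin of C57BL/6 mice aged 3 weeks, picked as the cells that attached quickly to collagen IV and grown in a keratinocyte medium free of serum. Fb denotes dermal fibroblasts of the dorsal skin of db/db mice aged 14 weeks, grown in DMEM with 10% FBS and moved to serum-free medium for 2 days before exosomes were collected, although the strain label of these libraries reads C57BL/6. All cells were at passage 0 to 1. Cell type, donor mice, age and medium changed together, so their parts in any difference cannot be told apart. The question was how the small RNA cargo of these exosomes differed. The labels call the libraries biological replicates without linking them to animals, and p-values here reflect only how far these libraries scattered.

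A miRNA is cut from a hairpin RNA, and one arm is loaded into an Argonaute protein, where bases 2 to 8, the seed, pair with messenger RNAs and repress them. The miR-30 family is widely expressed and abundant in many epithelia. Known targets include Snai1, a transcription factor of the epithelial-mesenchymal transition, Ccn2, a matrix-associated growth factor of fibroblasts, and Becn1, which starts autophagy. The 5 members come from 6 hairpin genes in 3 pairs of neighbours: Mir30a with Mir30c-2, Mir30b with Mir30d, and Mir30c-1 with Mir30e.

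The mature sequences are shown because they set how far reads of one member can be told from those of another. RefSeq (GRCm38.p6) matched 3 of the 5 members, and with them the brain-enriched miR-384-5p. Capitals mark the seed.
miR-30a-5p: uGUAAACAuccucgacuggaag
miR-30e-5p: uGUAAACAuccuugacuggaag
miR-30c-5p: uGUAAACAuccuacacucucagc
miR-384-5p: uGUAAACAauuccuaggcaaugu
All 4 share the seed GUAAACA. miR-30a-5p and miR-30e-5p differed at 1 of 22 bases, C13U with positions counted from the 5′ end of miR-30a-5p. miR-30c-5p has 23 bases and shared the first 12 with both. miR-384-5p shared only the first 8 bases with them and had 0 reads in every library. miR-30d is known to be close to miR-30a and miR-30e, and miR-30b to miR-30c, so sums over these subgroups are given beside the single members. Mir30a (chr1:23272269-23272339, plus strand, GRCm38) lies outside other annotated genes. Mir30c-2 (chr1:23291701-23291784, plus strand), 19432 bp further, overlaps the exon of Gm27028, a long non-coding RNA. Mir30c-1 (chr4:120769534-120769622, minus strand) and Mir30e (chr4:120772606-120772697, minus strand) lie 3072 bp apart in introns of Nfyc, which encodes a subunit of the CCAAT-binding factor NF-Y. Mir30e also overlaps Mir30f, a miRNA gene annotated on the plus strand. miR-30c-5p is the same molecule from either of its genes.

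The libraries held 9894485 to 11149046 assigned reads for ESC and 6914504 to 8691350 for Fb exosomes. Mature miRNA reads numbered 1392859 to 1522604 per ESC library but 49019, 177990 and 118748 in Fb replicates 1, 2 and 3. A floor of 3 reads was 1.97 to 2.15 CPM (mature miRNA reads scaled to 1000000) for ESC exosomes and 16.9 to 61.2 CPM for the Fb ones. Of the marker miRNAs, 7 of 7 epithelial ones had reads in both groups, with a summed level of 59872 to 74600 CPM in ESC and 7457 to 14174 CPM in Fb exosomes. The 7 of 7 fibroblast and stromal ones summed to 179 to 209 CPM in ESC and 194959 to 304414 CPM in Fb exosomes. The labels and these markers therefore point the same way, with epithelial miRNAs also present in Fb exosomes.

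The family as a whole was more abundant in ESC exosomes, where it held about double the share of miRNA reads. It received 3.02%, 3.08% and 3.08% of mature miRNA reads in the ESC libraries and 1.32%, 1.52% and 1.52% in the Fb libraries. The mean share was 3.06% ± 0.0320 (SD, n = 3) for ESC and 1.45% ± 0.117 for Fb. Every ESC library lay above every Fb library (exact two-sided permutation p = 0.1, the lowest value possible with 3 libraries a group). With the members summed to one row and fitted with all other miRNAs, the log2 ratio of ESC to Fb, the fold change on a log2 scale, was 1.46 (SE 0.27, edgeR's quasi-likelihood test, Benjamini-Hochberg adjusted p = 0.00363). This fit also rescales the libraries by TMM factors, so its log2 ratios are larger than those of the shares or CPM means printed here. With library totals alone the family sum was at 1.08 (edgeR adjusted p = 0.00688). A library pools the vesicles of many cells, so fewer cells releasing a miRNA and less of it per cell cannot be told apart.

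The same sums can be set against other seeds. Of the mature miRNAs, 1673 had a sequence, with miR-30b-5p and miR-30d-5p counted with the family by name, and these covered 82.2% to 94.7% of miRNA reads per library. Among their 1395 seeds, that of the miR-30 family ranked 7 or 8 by reads in the ESC libraries and 12 or 13 in the Fb libraries. By mean share of miRNA reads it ranked 7 in ESC and 14 in Fb exosomes. In ESC exosomes the leading seeds were those of let-7 (16.98% ± 0.0600 of miRNA reads), miR-10 (12.3% ± 1.73), miR-182 (10.6% ± 0.432), miR-21 (9.45% ± 0.511) and miR-146 (5.79% ± 0.518; SD, n = 3 each). In Fb exosomes they were those of miR-199-3p, let-7, miR-21, miR-181 and miR-92 with miR-25. The seed of miR-30 thus moved down the order from ESC to Fb exosomes, a description of ranks that was not tested. The seeds were not treated alike, since miRNAs of other seeds without a sequence were left out. The rank of the miR-30 seed rests in part on miR-30d-5p and miR-30b-5p being added by name.

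**Figure D1:**
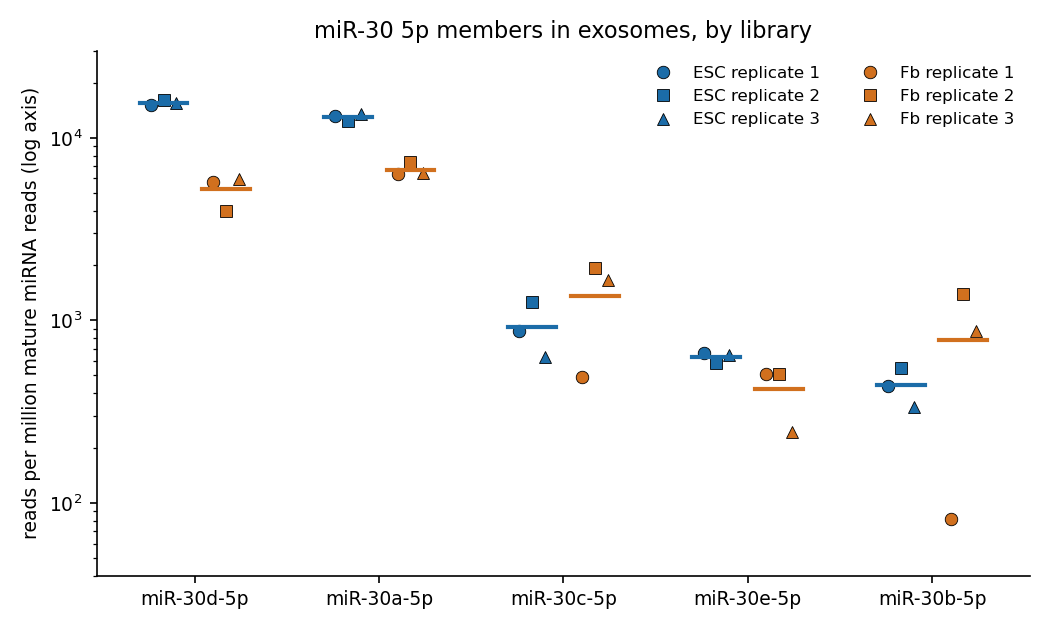
Level of each miR-30 5p member in each library, in CPM on a log axis. Symbols are libraries and lines are group means (n = 3). miR-30d-5p and miR-30a-5p were higher in all ESC libraries, while miR-30c-5p and miR-30b-5p overlapped between the groups and were lowest in Fb replicate 1.

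The difference was carried by the 2 abundant members. Of the 5 members, 2 were higher in ESC exosomes by edgeR's adjusted p and 0 were higher in Fb exosomes, where 21.8% and 27.7% of the 325 miRNAs tested were called in those directions. By levels alone, 3 of the 5 members were higher in every ESC library than in any Fb library, where 24.9% of the 325 were. The other 2 overlapped, as 39.1% did, and 0 were higher in every Fb library, as 36.0% were. Over the 325 miRNAs 71 calls were toward ESC and 90 toward Fb exosomes, a split that became 52 and 103 with library totals alone. Without the 3 most abundant miRNAs in the library size it was 45 and 114 of 322 miRNAs tested. In the fit with all RNAs it was 53 and 16 of 307 miRNAs tested. The members' median log2 ratio was 0.99 against -0.11 over all miRNAs tested. All 5 passed the filter on low counts.

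miR-30d-5p, known from melanoma, where it promotes metastasis together with miR-30b, was the most abundant member of ESC exosomes. It was at 15134, 16034 and 15593 CPM in the ESC libraries and at 5762, 3994 and 5941 CPM in the Fb libraries. The groups lay far apart, and Fb replicate 2 was the lowest library. The means were 15587 ± 450.1 CPM (SD, n = 3) and 5232 ± 1076 CPM, a ratio of 2.98. The log2 ratio was 1.99 with TMM factors (SE 0.27, edgeR adjusted p = 0.00102) and 1.58 with library totals alone (edgeR adjusted p = 0.00287). The call with TMM factors held without any one library (edgeR adjusted p = 1.81e-04 to 0.00793).

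miR-30a-5p, a repressor of Becn1 and Snai1, was the leading member in Fb exosomes. Its level was 13136, 12396 and 13545 CPM in the ESC libraries and 6313, 7371 and 6437 CPM in the Fb libraries. The libraries of each group lay close together and the groups did not overlap. The means were 13026 ± 582 CPM (SD, n = 3) and 6707 ± 578 CPM, a ratio of 1.94. The log2 ratio was 1.35 with TMM factors (SE 0.28, edgeR adjusted p = 0.00673) and 0.96 with library totals alone (edgeR adjusted p = 0.0135). Without Fb replicate 3 the log2 ratio with TMM factors was 1.37 and missed the threshold (edgeR adjusted p = 0.0774).

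miR-30e-5p, which differs from miR-30a-5p at the single base given above, was a minor member. It was at 661, 585 and 647 CPM in the ESC libraries and at 512, 512 and 245 CPM in the Fb libraries. The groups did not overlap, with Fb replicate 3 the lowest, but the Fb values rest on 25, 91 and 29 reads. Its log2 ratio of 0.99 (SE 0.36) did not pass (edgeR adjusted p = 0.0552). When ESC replicate 2, Fb replicate 1 or Fb replicate 2 was left out it did pass (edgeR adjusted p = 0.0483, 0.0343 and 0.0158 in turn), as it did by DESeq2 (adjusted p = 0.00444), with DESeq2's size factors (edgeR adjusted p = 0.0341) and with no count filter (edgeR adjusted p = 0.0199). Under the other 11 settings miR-30e-5p did not pass. Among these it was at 0.59 with library totals alone (edgeR adjusted p = 0.196). It was at 0.45 without the 3 most abundant miRNAs in the library size (edgeR adjusted p = 0.316) and at 0.77 without Fb replicate 3 (edgeR adjusted p = 0.246).

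miR-30c-5p, known to repress Ccn2 in heart fibroblasts and Mttp in the liver, overlapped between the groups. It was at 872, 1259 and 632 CPM in the ESC libraries and at 489, 1933 and 1667 CPM in the Fb libraries. Fb replicates 2 and 3 stood above all ESC libraries and Fb replicate 1 below them. Its log2 ratio was -0.26 (SE 0.58, edgeR adjusted p = 0.725), and its sign turned by limma-trend (0.0098), in the fit with all RNAs (0.0071), with no count filter (0.23) and without Fb replicate 2 (0.30).

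miR-30b-5p overlapped between the groups too, and was the least abundant member in the ESC libraries. It was at 437, 551 and 337 CPM there and at 81.6, 1399 and 876 CPM in the Fb libraries. The Fb replicate 1 value rests on 4 reads, with an exact 95% counting interval of 22.2 to 209 CPM, below the intervals of Fb replicate 2 (1231 to 1584 CPM) and Fb replicate 3 (716 to 1061 CPM). The log2 ratio was -0.57 (SE 0.81, edgeR adjusted p = 0.585), with the sign turned by limma-trend (0.29) and without Fb replicate 2 (0.32). Without Fb replicate 1 it was -1.001 and passed as higher in Fb exosomes (edgeR adjusted p = 0.0308), while miR-30c-5p was at -0.60 and did not pass (edgeR adjusted p = 0.136).

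The Fb libraries spread widely for miR-30b-5p and miR-30c-5p, but not for these members alone. In Fb exosomes let-7g-5p was at 8764 ± 6144 CPM (SD, n = 3) and miR-19b-3p at 2592 ± 1977 CPM. Both are among the miRNAs picked below for their likeness to these members, and the spread over all miRNAs was not compared. The coefficient of variation over the Fb libraries was 84.5% for miR-30b-5p and 56.4% for miR-30c-5p, against 8.62% for miR-30a-5p and 20.6% for miR-30d-5p. In the ESC libraries it was 24.3% and 34.4% against 4.47% and 2.89%. Fb replicate 1 had the fewest miRNA reads, and marker levels also varied among the Fb libraries. The 8 blood cell and serum miRNAs summed to 4409, 427 and 11454 CPM in Fb replicates 1, 2 and 3 and to 8.90 to 310.5 CPM in ESC libraries, with reads for 6 of 8 in either group and 0 Fb reads of miR-142a-3p and miR-150-5p. The 3 muscle miRNAs summed to 1714, 466 and 556 CPM in the Fb libraries and to 123.1 to 161 CPM in ESC libraries. The 2 endothelial miRNAs summed to 347, 163 and 109 CPM in the Fb libraries and to 77.1 to 120 CPM in ESC libraries, and the 4 neural and pigment-cell ones to at most 16.8 CPM in any library. The part of depth or of these other sources in the spread was not tested.

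The order of the members differed between the groups. In each ESC library miR-30d-5p came first at rank 14 to 16 among all miRNAs, and miR-30a-5p followed at rank 17 to 19. In the Fb libraries miR-30a-5p came first at rank 28 to 33 and miR-30d-5p followed at rank 34 to 38. The ratio of miR-30a-5p to miR-30d-5p was 0.868, 0.773 and 0.869 in the ESC libraries and 1.10, 1.85 and 1.08 in the Fb libraries. In ESC exosomes miR-30c-5p and miR-30e-5p overlapped behind them and miR-30b-5p lay below both, and in Fb exosomes the ranges of these 3 members overlapped. Of the 10 ratios between pairs of members, 2 did not overlap between the groups, this one and that of miR-30c-5p to miR-30d-5p (0.0405 to 0.0785 in ESC and 0.0849 to 0.484 in Fb libraries). These ratios are given as a description, without a test.

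**Figure D2:**
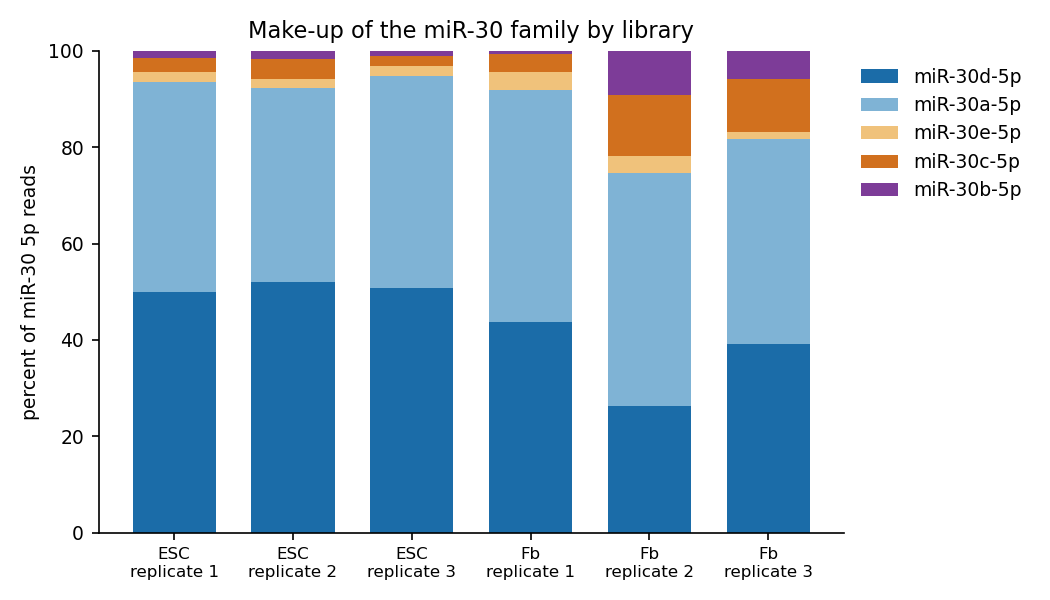
Percent of the miR-30 5p reads held by each member, one bar per library. miR-30d-5p held 50.05% to 52.0% in the ESC bars and 26.3% to 43.8% in the Fb bars, and miR-30b-5p with miR-30c-5p took a visibly larger part in Fb replicates 2 and 3 but not in Fb replicate 1.

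Within the family, miR-30d-5p took a larger part in every ESC library than in any Fb library. The shares of miR-30c-5p overlapped, and a count model called a smaller part in ESC exosomes, a call lost under most other settings. miR-30d-5p held 50.05%, 52.0% and 50.7% of the family's reads in the ESC libraries and 43.8%, 26.3% and 39.2% in the Fb libraries. It was the 1 member whose shares did not overlap between the groups (exact two-sided permutation p = 0.1, adjusted exact permutation p = 0.4 over the 5 members). miR-30a-5p took nearly the same part in both, 42.6% ± 2.06 (SD, n = 3) in ESC and 46.3% ± 3.34 in Fb exosomes (exact permutation p = 0.3). miR-30c-5p held 2.88%, 4.08% and 2.05% in the ESC libraries and 3.72%, 12.7% and 11.0% in the Fb libraries (exact permutation p = 0.2). miR-30b-5p held 1.44% ± 0.346 and 5.20% ± 4.32 (exact permutation p = 0.4), and miR-30e-5p 2.06% ± 0.148 and 2.96% ± 1.19 (exact permutation p = 0.4). Each of these has an adjusted exact permutation p = 0.4.

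In the count model with the family total as library size, 1 of the 5 members passed. It was miR-30c-5p, with a smaller part in ESC exosomes (log2 ratio -1.62, SE 0.51, edgeR adjusted p = 0.0326). On that scale 51.7% of the 325 miRNAs were called higher in Fb and 7.38% higher in ESC exosomes. The median log2 ratio of the 325 was -1.62 too, so the value of miR-30c-5p was that of the median miRNA and does not set it apart. The call was lost by limma-trend (limma adjusted p = 0.0676) and without any one library other than Fb replicate 1 (edgeR adjusted p = 0.0540 to 0.107). miR-30b-5p (-1.89, SE 0.78, edgeR adjusted p = 0.0730), miR-30d-5p (0.49, SE 0.27, edgeR adjusted p = 0.164), miR-30e-5p (-0.50, SE 0.37, edgeR adjusted p = 0.271) and miR-30a-5p (-0.12, SE 0.22, edgeR adjusted p = 0.660) did not pass, though miR-30b-5p did with no count filter (edgeR adjusted p = 4.23e-04). Without Fb replicate 1, miR-30b-5p (-2.38, edgeR adjusted p = 3.66e-04), miR-30c-5p (-1.98, edgeR adjusted p = 0.00110) and miR-30d-5p (0.64, edgeR adjusted p = 0.0394) all passed.

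Sums over members close in sequence do not depend on how reads were divided among them. miR-30a, miR-30d and miR-30e together were at 28930, 29015 and 29784 CPM in the ESC libraries and at 12587, 11877 and 12623 CPM in the Fb libraries. This subgroup varied less within a group than miR-30d-5p alone in Fb exosomes, with a coefficient of variation of 3.40%, and its log2 ratio was 1.67 (SE 0.24, edgeR adjusted p = 0.00141). miR-30b and miR-30c together were at 1309, 1810 and 969 CPM in the ESC libraries and at 571, 3332 and 2543 CPM in the Fb libraries, with a log2 ratio of -0.33 (SE 0.66, edgeR adjusted p = 0.690). Its sign turned by limma-trend (0.069), with no count filter (0.12) and without Fb replicate 2 (0.32). This pair held 4.33%, 5.87% and 3.15% of the family in the ESC libraries and 4.34%, 21.9% and 16.8% in the Fb libraries.

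**Figure D3:**
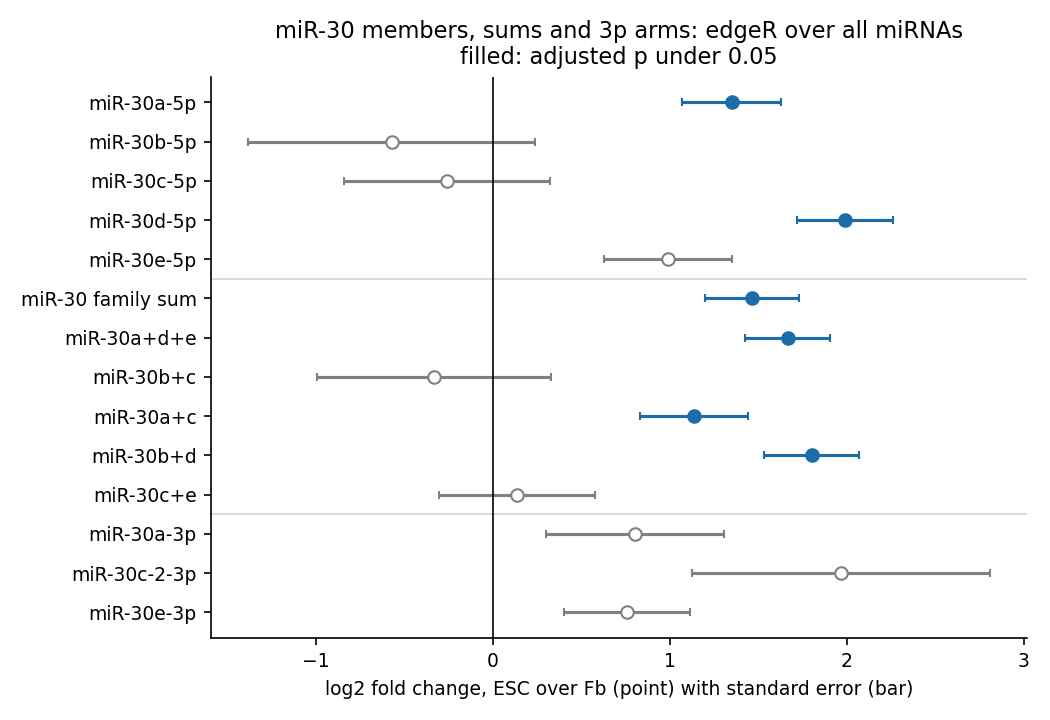
Log2 fold change, ESC over Fb exosomes, with its standard error for the 5 members, their sums by family, sequence subgroup and gene pair, and the 3p arms that were tested. Filled points passed an edgeR adjusted p of 0.05: miR-30a-5p, miR-30d-5p and the sums that hold either of them. The signs of miR-30b-5p, miR-30c-5p and their sum turned under some settings, as did that of miR-30c with miR-30e.

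In each gene pair the 2 mature members had unlike log2 ratios. miR-30c-5p pools reads of Mir30c-1 and Mir30c-2, so its ratio belongs to neither gene alone, and only Mir30b with Mir30d compares 2 genes. For Mir30a with Mir30c-2, the arms that tell genes apart both had positive log2 ratios. They were 0.80 for miR-30a-3p (edgeR adjusted p = 0.215) and 1.97 for miR-30c-2-3p (edgeR adjusted p = 0.0909). Neither passed, and miR-30c-2-3p had 4 reads in Fb exosomes. For Mir30a with Mir30c-2, the sum of miR-30a-5p and miR-30c-5p had a log2 ratio of 1.14 (SE 0.30, edgeR adjusted p = 0.0186), made up of 1.35 for miR-30a-5p and -0.26 for miR-30c-5p. This call was lost without ESC replicate 3 (1.12, edgeR adjusted p = 0.0505) or Fb replicate 3 (1.23, edgeR adjusted p = 0.117), without the 3 most abundant miRNAs in the library size (0.63, edgeR adjusted p = 0.122) and in the fit with all RNAs (1.66, edgeR adjusted p = 0.545). For Mir30b with Mir30d, the sum had a log2 ratio of 1.80 (SE 0.27, edgeR adjusted p = 0.00160), made up of -0.57 for miR-30b-5p and 1.99 for miR-30d-5p. For Mir30c-1 with Mir30e, the sum had a log2 ratio of 0.14 (SE 0.44, edgeR adjusted p = 0.816), with -0.26 for miR-30c-5p and 0.99 for miR-30e-5p, and its sign turned with library totals alone (-0.21), without the 3 most abundant miRNAs in the library size (-0.40) and without Fb replicate 1 (-0.12). The differences between the members of a pair were not tested as such, and the signs of miR-30b-5p and miR-30c-5p depend on the setting as given above.

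As parts of the family total, with miR-30c-5p counted whole in both of its pairs, the shares of each pair did not overlap between the groups. miR-30a with miR-30c held 46.3%, 44.3% and 46.1% in the ESC libraries and 51.7%, 61.2% and 53.4% in the Fb libraries. miR-30b with miR-30d held 51.5%, 53.8% and 51.8% in the ESC libraries and 44.4%, 35.5% and 44.9% in the Fb libraries. miR-30c with miR-30e held 5.07%, 5.98% and 4.16% in the ESC libraries and 7.61%, 16.1% and 12.6% in the Fb libraries. The pair of Mir30b and Mir30d was thus the larger in ESC exosomes and that of Mir30a and Mir30c-2 in Fb exosomes. Each of the 3 comparisons gave an exact two-sided permutation p = 0.1, the smallest possible here, and an adjusted exact permutation p = 0.1. Counted in this way, the 3 shares add up to more than the family, and they are not independent. The first 2 leave out only miR-30e-5p, so a larger part of one goes with a smaller part of the other. The third uses miR-30c-5p again. With miR-30c-5p divided by the reads of its 3p arms in each group, Mir30c-1 with Mir30e held 2.42%, 2.23% and 2.27% in the ESC libraries and 3.89%, 3.37% and 1.62% in the Fb libraries. The groups then overlapped, and the difference of ESC minus Fb went from -7.03 to -0.652 percentage points (exact permutation p = 0.4). For Mir30a with Mir30c-2 it went from -9.86 to -10.1 percentage points (exact permutation p = 0.1). The division in Fb exosomes rests on 4 reads of the 3p arms.

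The 3p arms, the partners that are usually discarded, show which hairpins were cut and tell the 2 genes of miR-30c apart. The hairpins of Mir30a and Mir30e are printed with both mature arms in capitals, 5p first, because these were the 2 with abundant 3p reads.
Mir30a: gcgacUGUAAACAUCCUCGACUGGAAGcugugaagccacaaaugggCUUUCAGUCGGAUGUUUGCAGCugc
Mir30e: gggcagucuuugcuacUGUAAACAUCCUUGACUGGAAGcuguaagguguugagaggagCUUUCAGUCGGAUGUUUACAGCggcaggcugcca
Their 3p arms differed at 1 of 22 bases, G18A from miR-30a-3p to miR-30e-3p. miR-30a-3p was at 1575, 1522 and 1252 CPM in the ESC libraries and at 440.2, 1396 and 1271 CPM in the Fb libraries. The groups overlapped, with Fb replicate 1 again the lowest (log2 ratio 0.80, SE 0.50, edgeR adjusted p = 0.215), and it passed with no count filter (edgeR adjusted p = 0.0353). miR-30e-3p was at 249, 255 and 175 CPM in the ESC libraries and at 132, 166 and 218 CPM in the Fb libraries (log2 ratio 0.76, SE 0.36, edgeR adjusted p = 0.116). It passed by DESeq2 (adjusted p = 0.0288) and with upper-quartile factors (edgeR adjusted p = 0.0331). Of the 6 arms, 3 passed the filter on low counts and 0 of these passed edgeR's adjusted p of 0.05, with an unadjusted p of 0.0515, 0.0707 and 0.152.

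**Figure D4:**
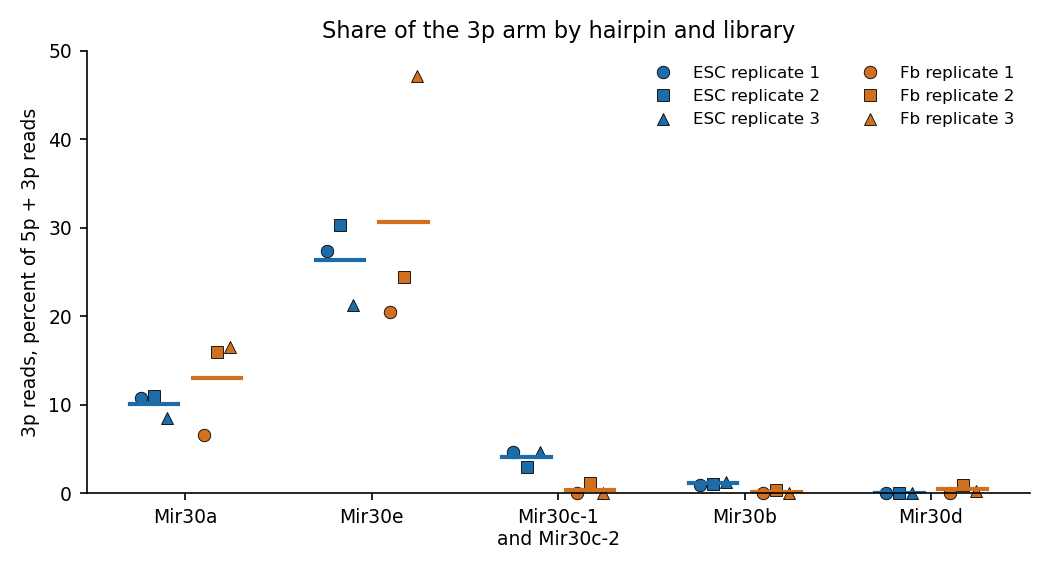
Reads of the 3p arm as percent of 5p and 3p reads together, by hairpin and library, with lines at group means (n = 3). Mir30e had the largest 3p part, 21.3% to 30.4% in ESC and 20.5% to 47.1% in Fb libraries, and Mir30d had the smallest group mean in ESC but not in Fb exosomes.

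The part of reads from the 3p arm spanned a wide range over the hairpins. miR-30e-3p held 26.3% ± 4.63 (SD, n = 3) of the reads of its hairpin in ESC and 30.7% ± 14.4 in Fb exosomes (exact permutation p = 0.9), and the sign of this difference turned without Fb replicate 3. miR-30a-3p held 10.7%, 10.9% and 8.46% in the ESC libraries and 6.52%, 15.9% and 16.5% in the Fb libraries (exact permutation p = 0.4). The adjusted exact permutation p over the 5 hairpins was 0.9 and 0.5. At Mir30d the 3p arm held 0.0511% ± 0.0209 in ESC and 0.420% ± 0.501 in Fb exosomes (exact permutation p = 0.4), from 34 and 9 reads of miR-30d-3p. Pooled over libraries, the rate of miR-30d-3p in ESC was 0.297 of that in Fb exosomes (exact 95% interval 0.140 to 0.705, counting error only). The groups overlapped, at 10.9, 8.12 and 4.76 CPM in the ESC libraries and 0, 39.3 and 16.96 CPM in the Fb libraries, with 7 of the 9 Fb reads in Fb replicate 2. With all libraries miR-30d-3p did not pass the filter on low counts. Without Fb replicate 2 its log2 ratio was 0.056 (edgeR adjusted p = 0.971). It was -1.55 without Fb replicate 1 and -1.53 without Fb replicate 3 (edgeR adjusted p = 0.0954 and 0.283). At the miR-30c hairpins the 3p arms held 4.63%, 2.92% and 4.65% in the ESC libraries and 0%, 1.15% and 0% in the Fb libraries (exact permutation p = 0.1, adjusted exact permutation p = 0.25). The Fb shares rest on 4 reads of these 3p arms, beside 24, 344 and 198 reads of miR-30c-5p. At Mir30b the 3p part was 1.11% ± 0.166 in ESC exosomes, with 22 reads, and there was 1 read in the Fb libraries, where 4, 249 and 104 reads of miR-30b-5p were counted (exact permutation p = 0.1, adjusted exact permutation p = 0.25).

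The miR-30c arms are shown because they differ between the 2 genes that give the same miR-30c-5p.
miR-30c-1-3p: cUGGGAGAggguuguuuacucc
miR-30c-2-3p: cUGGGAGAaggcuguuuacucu
Capitals mark the seed, and the arms differed at 3 of 22 bases, G9A, U12C and C22U from miR-30c-1-3p to miR-30c-2-3p. In ESC exosomes 149 of the 162 reads of these arms, 92.0% (exact 95% interval 86.7% to 95.7%, counting error only), were of miR-30c-2-3p, whose gene neighbours Mir30a. miR-30c-2-3p was at 40.2, 33.1 and 28.9 CPM in the ESC libraries, and 22.5 CPM, 4 reads, in Fb replicate 2, with 0 reads in the other Fb libraries, where the floor reached 61.2 CPM. Its fitted log2 ratio of 1.97 (SE 0.84, edgeR adjusted p = 0.0909) did not pass. It did by DESeq2 (adjusted p = 0.0366), by limma-trend (limma adjusted p = 0.0412), with no count filter (edgeR adjusted p = 0.0232) and without Fb replicate 2 (edgeR adjusted p = 0.0156), where all Fb reads are gone. The pooled rate ratio of ESC to Fb was 2.93 (exact 95% counting interval 1.12 to 10.9). miR-30c-1-3p had 13 reads over the ESC libraries and 0 in Fb exosomes, where the floor of 16.9 to 61.2 CPM is above its ESC level of 1.97 to 4.73 CPM. The rows of the 6 hairpins themselves held at most 3.68 reads in a library.

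The miRNAs most like a member were taken as the 3 with the smallest root mean square difference of log2 CPM over the 6 libraries, each miRNA set to its own mean. For miR-30a-5p they were miR-421-3p (difference 0.0451), miR-26a-5p (0.151) and miR-28a-3p (0.184). miR-421-3p averaged 786 ± 13.5 CPM (SD, n = 3) in ESC and 393 ± 25.7 CPM in Fb exosomes. For miR-30d-5p they were miR-125a-5p (0.115), miR-99b-5p (0.180) and miR-1981-5p (0.199). miR-30e-5p was nearest to miR-425-5p (0.222), miR-7a-5p (0.233) and miR-1983 (0.269). The less stable members had more distant neighbours. For miR-30c-5p these were let-7g-5p (0.302), miR-301a-3p (0.311) and miR-106b-3p (0.327), and for miR-30b-5p miR-3074-2-3p (0.275), miR-19b-3p (0.391) and miR-301b-3p (0.398). Within the family, miR-30a-5p was nearest to miR-30e-5p (0.366) and miR-30d-5p (0.411), miR-30b-5p to miR-30c-5p (0.653), and miR-30b-5p farthest from miR-30d-5p (1.62). The family sum was nearest to miR-421-3p (0.0921), miR-28a-3p (0.116) and miR-6944-3p (0.151). Some of these neighbours were near the 3-read floor of the Fb libraries (16.9 to 61.2 CPM), so their distances rest on few reads. They were miR-3074-2-3p (28.1 ± 25.7 CPM in Fb exosomes, SD, n = 3), miR-301b-3p (37.3 ± 32.7 CPM) and miR-6944-3p (27.4 ± 6.67 CPM). All distances describe 6 libraries in 2 groups and carry no test.

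As parts of all assigned reads, every member was higher in ESC exosomes, since miRNAs made up 13.3% to 14.7% of ESC reads and 0.613% to 2.05% of Fb reads. The family held 0.426%, 0.409% and 0.451% of assigned reads in the ESC libraries and 0.00807%, 0.0311% and 0.0260% in the Fb libraries. On this measure 5 of 5 members were higher in every ESC library, as were 74.8% of the 325 miRNAs tested, so the count says little about the family. miR-30b-5p, for example, was at 61.3 ± 11.8 reads per 1000000 assigned reads in ESC exosomes (SD, n = 3) and at 14.7 ± 14.1 in those of Fb.

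**Figure D5:**
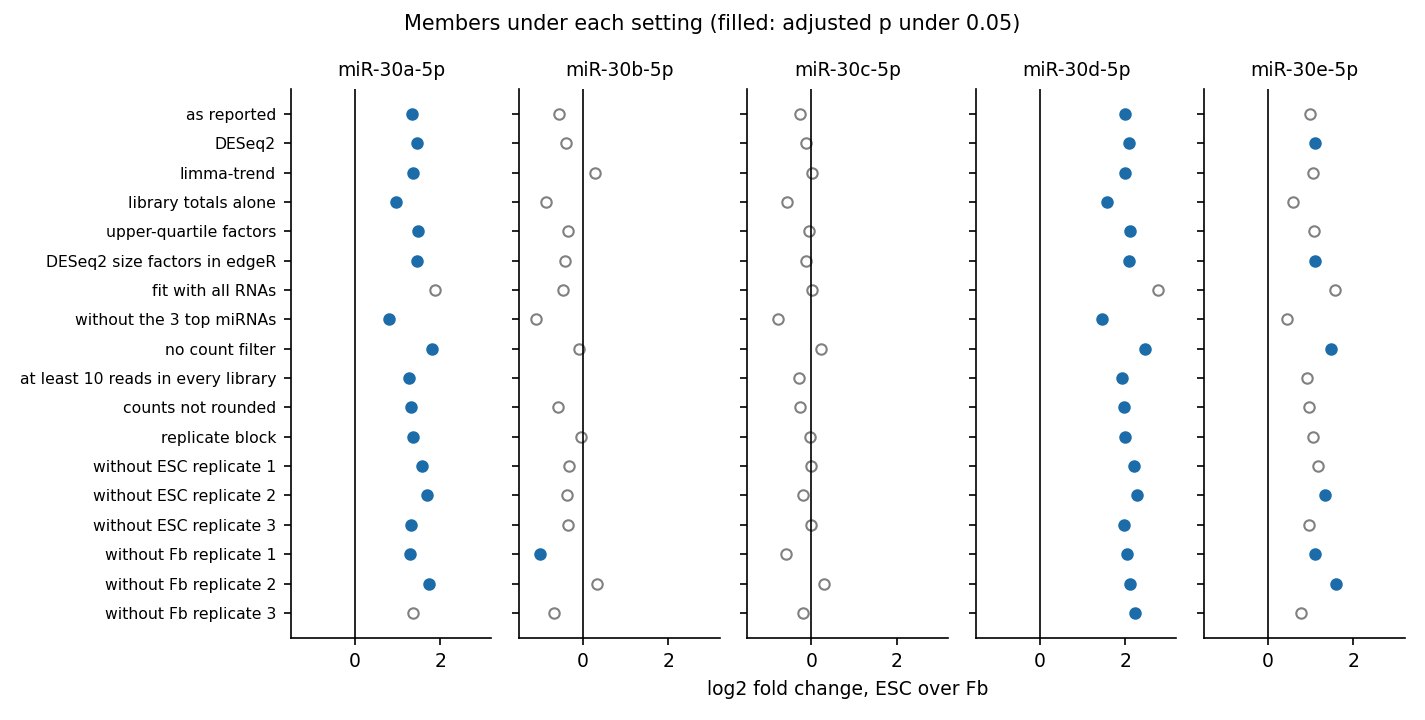
Log2 fold change of each member, ESC over Fb exosomes, as reported and under each other setting, with filled points at an adjusted p under 0.05. miR-30a-5p and miR-30d-5p were above 0 throughout and lost the threshold in the fit with all RNAs, miR-30a-5p also without Fb replicate 3. miR-30b-5p and miR-30c-5p lay on both sides of 0.

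The direction for miR-30a-5p, miR-30d-5p and miR-30e-5p and for the family sum was the same under each scaling tried. The scaling moved the median log2 ratio of all miRNAs from -0.11 to -0.52 with library totals alone, to -0.64 when the 3 most abundant miRNAs were left out of the library size and to 1.15 in the fit with all RNAs. With these scalings miR-30d-5p stood at 1.58, 1.46 and 2.77 and miR-30a-5p at 0.96, 0.81 and 1.89. Both passed under the first 2 (edgeR adjusted p = 0.00287 and 0.00346 for miR-30d-5p, 0.0135 and 0.0447 for miR-30a-5p). In the fit with all RNAs, where p was adjusted over all RNAs, neither passed (edgeR adjusted p = 0.250 and 0.473), and nor did the family sum at 2.02 (edgeR adjusted p = 0.459).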

How the data were processed

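The authors deposited 1 table per library with an estimated count for each of 16310 non-coding RNAs. FastQC, cutadapt and build GRCm38 are named in the submitters' processing notes. Not given in the sources used here are the aligner, the counter, strand use and how reads matching several RNAs were divided. Of the 30 member values, 2 were whole (within 0.001 reads). Counts were rounded before the count models.

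CPM was computed over mature miRNA reads. The test was edgeR's quasi-likelihood test (version 4.0.16, R 4.3.3) with TMM factors and the group as sole term. filterByExpr, set to at least 10 reads and 15 in total, kept 325 miRNAs, over which p was adjusted by Benjamini-Hochberg (threshold 0.05). The standard error was taken from the fold change and the F statistic. A positive log2 ratio is a higher level in ESC. Shares were compared by exact permutation of libraries. Sums replaced the member rows in the same fit. The subgroups by sequence rest on general knowledge of the family, since RefSeq sequences matched 3 of the 5 members. For composition, the family total was the library size, without TMM. The library size that leaves out the 3 most abundant miRNAs was also used without TMM. Alternatives used DESeq2 1.42.0, limma-trend 3.58.1 with a prior count of 2, other scalings and filters, unrounded counts, the replicate number as a block, and each library left out. The fits were tested on simulated data.

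The members, lists and rule were chosen with earlier results of these data known. The rule named the 5 members, their 3p arms and hairpins, miR-384-5p, 3 nearest miRNAs per member, and up to 5 leading seeds per group. Reads carry no molecular identifiers as far as the labels say, so exact (Clopper-Pearson) 95% intervals and the 3-read floor cover counting error only.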

Additional observations from a re-analysis of the deposited data

How the results depend on the processing

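Of 311 recomputed tests and counts of calls, 256 kept their direction and side of the threshold or stayed within 1.5 times. Shares compared by exact permutation can pass no threshold of 0.05, and of 93 recomputed differences 3 moved by more than the SD within groups and 1 changed sign. The part of miR-30c with e became -0.652 percentage points with miR-30c-5p divided by its 3p arms. The family's difference of 1.61 percentage points became 0.407 over all assigned reads and 1.74 without the 3 most abundant miRNAs. In the fit with all RNAs the log2 fold changes (edgeR adjusted p) were 1.89 (0.473) for miR-30a-5p, 2.77 (0.250) for miR-30d-5p, 2.02 (0.459) for the family, 2.28 (0.382) for miR-30a with d and e, 1.66 (0.545) for miR-30a with c and 2.47 (0.323) for miR-30b with d, and 0.0071 for miR-30c-5p; miRNA calls higher in Fb fell from 90 to 16 there. Without the 3 most abundant miRNAs in the library size, miR-30a with c was at 0.63 (edgeR adjusted p = 0.122), miR-30c with e at -0.40, and calls higher in ESC numbered 45 against 71. With library totals alone miR-30c with e was at -0.21. With no count filter miR-30a-3p (1.29), miR-30c-2-3p (2.45), miR-30e-5p (1.46) and the family part of miR-30b-5p (-1.88) passed, while miR-30c-5p (0.23) and miR-30b with c (0.12) turned sign. Requiring 10 reads in every library left 40 and 41 calls from 137 miRNAs, and miR-30b-5p was not tested there. By limma-trend miR-30b-5p (0.29), miR-30c-5p (0.0098) and their sum (0.069) turned sign, miR-30c-2-3p passed (2.83), and the family part of miR-30c-5p (-1.47) did not. By DESeq2 miR-30c-2-3p (2.12), miR-30e-3p (0.86) and miR-30e-5p (1.10) passed, as did miR-30e-5p with DESeq2 size factors in edgeR (1.10) and miR-30e-3p with upper-quartile factors (0.94). The causes were not tested.

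Same-numbered libraries did not deviate together (correlations of -0.26, -0.11 and -0.13 across miRNAs, which are not independent), so the numbers do not pair them. With the replicate block, calls higher in ESC numbered 45, miR-30a with c was at 1.17 (edgeR adjusted p = 0.0653) and the family part of miR-30c-5p at -1.502 (0.0743), and no other call on the family changed.

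Leaving out 1 library at a time gave 38 to 103 calls higher in ESC and 62 to 110 higher in Fb. The log2 fold changes ranged over 1.30 to 1.75 (miR-30a-5p), -1.001 to 0.32 (miR-30b-5p), -0.60 to 0.30 (miR-30c-5p), 0.77 to 1.58 (miR-30e-5p), 1.36 to 7.99 (miR-30c-2-3p), 1.04 to 1.60 (miR-30a with c), -0.77 to 0.32 (miR-30b with c) and -0.12 to 0.70 (miR-30c with e). Parts of the family ranged over -2.38 to -1.24 (miR-30b-5p), -1.98 to -1.32 (miR-30c-5p) and 0.30 to 0.64 (miR-30d-5p), and the 5p part at Mir30e, ESC minus Fb, over -3.86 to 9.46 percentage points. The depth of Fb replicate 1 limits what can be said of miR-30b-5p, miR-30c-5p and the 3p arms.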
